A study of Homo sapiens with 4 samples.

Results

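The 33 genes described here centre on ATF4, the transcription factor of the integrated stress response, and not each is shown to be its target. They were chosen by name with earlier results of these data known. Their shares beside those of all genes therefore describe the list and test nothing. They are 10 factors and regulators of the ATF4 axis and the endoplasmic reticulum stress genes XBP1 and HERPUD1. The others are 7 enzymes of serine, one-carbon and asparagine synthesis and 14 cytosolic aminoacyl-tRNA synthetases. All 33 were measured, by 36 of the 28869 rows of the array table, out of 18377 genes that could be named. RNA of HuCCT1, an established line of human bile duct cancer cells, was hybridised to Affymetrix Human Gene 1.0 ST arrays, which probe the exons along each transcript. The 4 conditions were GEM and VPA given together (labelled GEM_VPA, the combination), VPA alone, GEM alone and untreated cells, with 1 array each. VPA and GEM are the labels' abbreviations, read here as valproic acid, which inhibits histone deacetylases, and gemcitabine, a nucleoside analogue. The sources used here give no dose, exposure time or culture batch. Since RNA was taken from whole cultures, fewer cells of a kind and less RNA per cell cannot be told apart.

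In the integrated stress response, kinases that sense amino acid shortage, endoplasmic reticulum stress, viral RNA or haem shortage phosphorylate the translation factor eIF2 alpha. General protein synthesis then slows while the ATF4 mRNA is translated more, so ATF4 activity can change with little change in its transcript. ATF4 pairs with C/EBP proteins on composite DNA elements and raises transcription of amino acid transporters, of the serine pathway, of asparagine synthetase and of many tRNA synthetases. Tumour cells use these genes to supply amino acids and one-carbon units for protein and nucleotide synthesis.

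With 1 array per condition there was no replicate, so the differences below are sizes without error, and no p-value is given for a single comparison. Precision is limited by the number of arrays. All levels are log2 intensities and all ratios are differences of log2 levels. A gene was counted as different when its ratio was at least 1 in size (2-fold, the study's own limit) and its higher level lay at or above the median of that array. NUPR1 and ALDH1L2 lay below the median on all 4 arrays, at percentiles 39.8 to 42.0 and 25.3 to 30.1 of all rows, so 31 members could be counted.

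Over all rows the combination array resembled the untreated array (Pearson r 0.996) and the VPA array resembled the GEM array (r 0.996), while the other pairs correlated at 0.984 to 0.987. The spread of log2 differences, as a robust SD over genes, was 0.147 for the combination over untreated and 0.158 between GEM and VPA, against 0.253 to 0.270 for the other pairs. Directions below follow the labels as given. Whether arrays were exchanged between conditions cannot be tested with 4 arrays, and an exchange would change the ratios and the departure from additivity below. All 7 biliary epithelial markers (KRT7, KRT19, KRT8, KRT18, EPCAM, SOX9 and CDH1) lay above the array medians on every array. Their summed linear level was 44896 on the combination array, 61517 on the VPA array, 61970 on the GEM array and 45621 on the untreated array, and its part in the results below was not tested. Of 6 hepatocyte and 6 fibroblast markers, only APOA1 and COL1A1 reached the median. Of 5 leukocyte markers, CD68 did on every array and LYZ on the GEM array, with PTPRC, which all leukocytes carry, at percentiles 8.2 to 9.4.

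The DNA element bound by ATF4 and its C/EBP partners, the CARE, was looked for in RefSeq promoter windows (build GRCh38.p14) that run from 250 bases before to 50 bases after each annotated transcription start. The letters searched were TGATGNAA on either strand, where N is any base and the other strand reads TTNCATCA. Of the 33 members, 25 had a window and 11 of these (44%) held a match, against 4.46% of the 27305 genes of the table. Counting matches before the start only, the shares were 28% and 3.89%. The 11 are shown so that the sites can be set beside the ratios given further on. Each line below gives 30 bases on the gene's strand, 5′ to 3′, with the match in capitals. The first 3 are a glutathione-degrading enzyme, an ER-associated degradation protein and a C/EBP factor, the next is asparagine synthetase, and the rest are tRNA synthetases.
CHAC1: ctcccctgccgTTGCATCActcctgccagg
HERPUD1: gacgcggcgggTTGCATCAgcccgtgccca
CEBPG: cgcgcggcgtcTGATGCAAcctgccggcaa
ASNS: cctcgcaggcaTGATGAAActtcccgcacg
AARS1: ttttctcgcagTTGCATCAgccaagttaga
CARS1: cggggcggcggTTGCATCAgattctaggaa
GARS1: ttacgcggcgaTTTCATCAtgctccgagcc
IARS1: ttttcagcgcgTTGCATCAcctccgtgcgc
MARS1: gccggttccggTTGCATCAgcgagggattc
NARS1: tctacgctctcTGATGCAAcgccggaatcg
TARS1: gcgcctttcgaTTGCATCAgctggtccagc

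These 30-base windows lie at chr15:40953251-40953280 on the plus strand for CHAC1, chr16:56931955-56931984 plus for HERPUD1, chr19:33374060-33374089 plus for CEBPG and chr7:97872458-97872487 minus for ASNS. Those of the synthetases lie at chr16:70289675-70289704 minus for AARS1, chr11:3057407-3057436 minus for CARS1, chr7:30594834-30594863 plus for GARS1 and chr9:92293692-92293721 minus for IARS1. The last 3 lie at chr12:57488053-57488082 plus for MARS1, chr18:57621804-57621833 minus for NARS1 and chr5:33440956-33440985 plus for TARS1. The match began before the start in 9 genes, at positions -209 to -2, and after it in TARS1 (position 3) and NARS1 (position 15). The matches of MARS1 and CARS1 span the start itself.

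**Figure D1:**
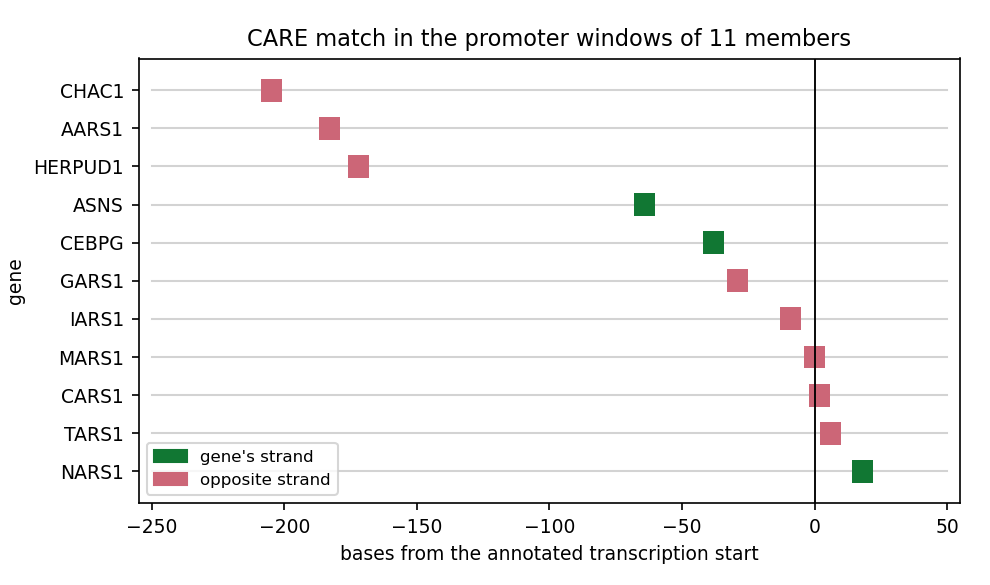
Position of the CARE match in the RefSeq promoter windows of 11 member genes. The x axis gives bases from the annotated transcription start, each bar covers the 8 matched bases, and colour gives the strand. The matches of CHAC1, AARS1 and HERPUD1 lie farthest upstream, and those of the other synthetases lie within 33 bases of the start.

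The 250 bases before the start of ASNS (chr7:97872409-97872658, minus strand) and of CEBPG (chr19:33373863-33374112, plus strand) are given with the match in capitals, because among the 11 genes these 2 differed most between the single-drug arrays and the others.
ASNS upstream: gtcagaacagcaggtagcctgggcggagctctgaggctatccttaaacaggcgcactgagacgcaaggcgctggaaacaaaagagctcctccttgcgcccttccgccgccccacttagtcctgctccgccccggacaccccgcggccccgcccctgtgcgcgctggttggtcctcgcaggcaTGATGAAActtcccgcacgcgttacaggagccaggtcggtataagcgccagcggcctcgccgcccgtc
CEBPG upstream: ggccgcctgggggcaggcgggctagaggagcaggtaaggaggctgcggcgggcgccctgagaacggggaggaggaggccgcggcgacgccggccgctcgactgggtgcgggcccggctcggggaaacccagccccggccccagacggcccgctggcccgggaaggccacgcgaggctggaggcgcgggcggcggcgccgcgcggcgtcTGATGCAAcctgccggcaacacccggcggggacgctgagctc

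As a group, the members were lower on both single-drug arrays and close to untreated on the combination array. Of the 31 members at level, 25 had both single-drug levels below the levels of the combination and untreated arrays, a pattern that 39.1% of the 11797 genes at level showed. SARS1 and HARS1, seryl- and histidyl-tRNA synthetase, had both single-drug levels above the other arrays, as did 31.0% of genes at level. ATF4, ATF5, DDIT4 and XBP1 followed neither order. These orders are those of the deposited values, and their counts were not rerun under other settings. After a further quantile normalization, CEBPB, HERPUD1, PSPH and EPRS1 were among the 25 that lost their order. The reversed ratios were small. They were -0.02 for CEBPB (combination over GEM), -0.02 for PSPH (combination over VPA) and 0.03 for HERPUD1 (GEM over untreated). For EPRS1 they were 0.01 (VPA) and 0.03 (GEM) over untreated. The median log2 ratio over all 33 members against untreated was -0.08 with the combination, -0.40 with VPA and -0.38 with GEM. Over all genes these medians were -0.03 with the combination and -0.01 with either drug alone. At level only, all genes had medians of -0.03 with the combination, -0.05 with VPA and -0.04 with GEM. Members at level had -0.09, -0.40 and -0.42 in the same order. These comparisons share the untreated array, so they are not independent of each other.

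**Figure D2:**
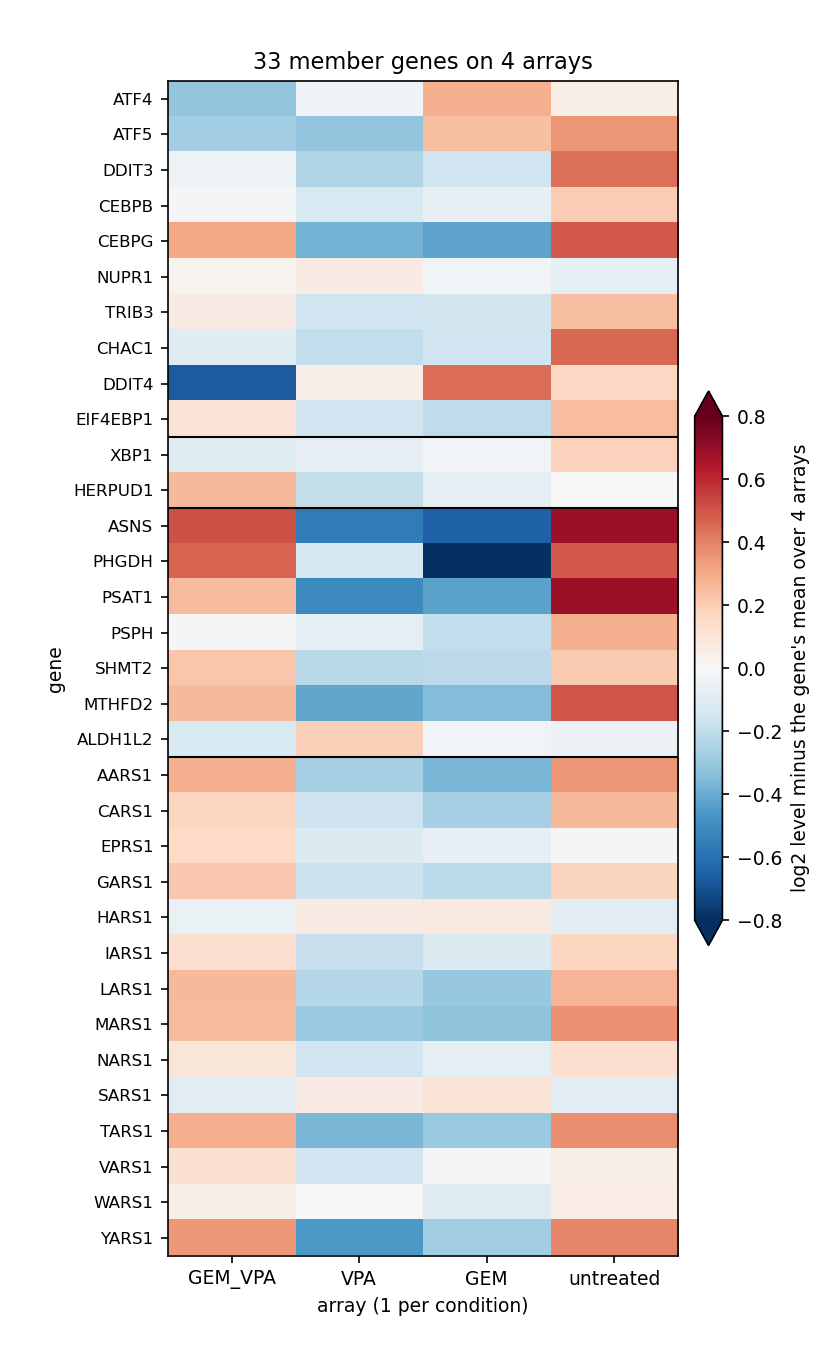
Log2 level of each of the 33 member genes minus its mean over the 4 arrays. Columns are the arrays, 1 per condition, and black lines separate the factors, XBP1 and HERPUD1, the enzymes and the synthetases. Most enzymes and synthetases are blue on the VPA and GEM arrays and red on the combination and untreated arrays, while DDIT4 and ATF4 are lowest on the combination array.

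The ATF4 transcript itself did not follow the order of most members. Its level was 10.69 on the combination array, 10.98 with VPA, 11.29 with GEM and 11.06 on the untreated array. ATF4 was thus lowest with the combination (log2 ratio -0.37 over untreated) and highest with GEM (0.23). Its largest ratio was -0.60, for the combination over GEM (1.52-fold), and no comparison reached 2-fold. ATF5, a related factor of mitochondrial stress, followed another order, at 9.33 with the combination, 9.29 with VPA, 9.85 with GEM and 9.96 untreated. Both arrays with VPA were low for ATF5 and both without it high. The ratio for adding VPA was -0.53 in the presence of GEM (combination over GEM) and -0.67 in its absence (VPA over untreated), and these pairs share no array. The 1.5-fold size was reached in the absence of GEM only.

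CEBPG, the C/EBP family partner of ATF4, had the largest difference of the factors on the single-drug arrays. Its level was 10.12 with the combination, 9.43 with VPA, 9.39 with GEM and 10.30 untreated, which puts both single-drug arrays 1.82-fold (VPA) and 1.87-fold (GEM) below untreated. CEBPB, another family member, varied less, with 10.09 with the combination, 9.98 with VPA, 10.04 with GEM and 10.31 untreated. The 2 C/EBP genes thus had the same highest array but differed in size.

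The pro-apoptotic and feedback genes downstream of ATF4 were highest without drug. DDIT3, which encodes CHOP, was at 8.68 with the combination, 8.48 with VPA, 8.56 with GEM and 9.16 untreated. CHAC1, which degrades glutathione, was at 9.17 with the combination, 9.07 with VPA, 9.11 with GEM and 9.73 untreated. TRIB3, a pseudokinase that restrains ATF4 and CHOP, was at 9.32 with the combination, 9.10 with VPA, 9.11 with GEM and 9.50 untreated. All 3 drug arrays lay below untreated for these genes, and for DDIT3 and CHAC1 the combination stayed nearer to the single drugs than to untreated, unlike CEBPG. The low-level gene NUPR1, a stress-induced chromatin factor, spanned only 0.13 over the 4 arrays.

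The translation and mTOR regulators split. EIF4EBP1, which encodes the repressor 4E-BP1 of cap-dependent translation, was at 10.78 with the combination, 10.52 with VPA, 10.47 with GEM and 10.92 untreated, so it followed the general order. DDIT4, which encodes the mTORC1 inhibitor REDD1, was at 8.84 with the combination, 9.56 with VPA, 9.95 with GEM and 9.67 untreated. The combination array was thus the low one for DDIT4, by 1.77-fold against untreated and by a log2 ratio of -1.10 against GEM. DDIT4 was the only member at least 2-fold lower in the combination over GEM (1.78% of genes at level were).

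XBP1, a transcription factor of the endoplasmic reticulum stress response, stayed between 10.77 and 11.05 on the 4 arrays. HERPUD1, which takes part in the degradation of misfolded proteins, was highest with the combination, at 11.65, against 11.20 with VPA, 11.31 with GEM and 11.39 untreated. The ER stress element (searched on either strand as CCAAT and CCACG with any 9 bases between), bound by the ER stress factor ATF6, was found in the XBP1 window and in the windows of 0.0916% of all genes of the table. It is shown with the match in capitals because XBP1 was the only member to hold it (chr22:28800598-28800626, minus strand).
XBP1: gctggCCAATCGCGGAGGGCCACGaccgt

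The largest differences among the members were in the amino acid enzymes. Asparagine synthetase, ASNS, was at 10.30 with the combination, 9.23 with VPA, 9.14 with GEM and 10.48 untreated. This is 2.39-fold lower with VPA and 2.53-fold lower with GEM than untreated, and 1.14-fold lower with the combination. PSAT1, the aminotransferase of the serine pathway, was at 11.53 with the combination, 10.77 with VPA, 10.85 with GEM and 11.97 untreated. It was thus 2.30-fold lower with VPA and 2.17-fold lower with GEM than untreated, and the combination lay between the single drugs and untreated.

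PHGDH, the dehydrogenase that opens the serine pathway, separated the single drugs from each other. Its level was 11.69 with the combination, 11.09 with VPA, 10.41 with GEM and 11.72 untreated. The log2 ratio of VPA over GEM was 0.68 for PHGDH and -0.57 for ATF5, and the remaining members lay between -0.39 and 0.21 for this ratio. The PHGDH ratios over untreated were -0.63 with VPA and -1.31 with GEM. PSPH, the phosphatase that closes the pathway, differed less, at 10.69 with the combination, 10.62 with VPA, 10.50 with GEM and 10.98 untreated. The 2 rows of PSPH gave ratios of -0.17 and -0.53 for VPA over untreated, and the gene has near-identical copies in the genome, so its value is uncertain.

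Downstream of serine, MTHFD2, the mitochondrial methylenetetrahydrofolate dehydrogenase, was at 12.64 with the combination, 11.96 with VPA, 12.03 with GEM and 12.88 untreated. SHMT2, the mitochondrial serine hydroxymethyltransferase, was at 12.73 with the combination, 12.29 with VPA, 12.30 with GEM and 12.72 untreated. Both were low on the 2 single-drug arrays, MTHFD2 by 1.88-fold with VPA and 1.80-fold with GEM, SHMT2 by 1.35-fold and 1.34-fold in the same order. ALDH1L2, a mitochondrial folate enzyme measured at low level, stayed between 6.43 and 6.74.

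**Figure D3:**
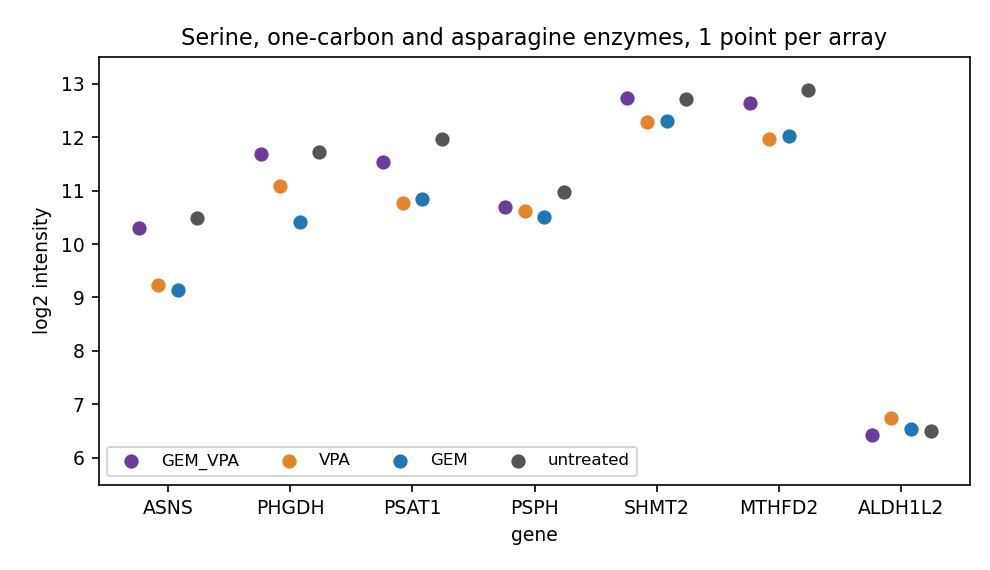
Log2 intensity of the 7 amino acid and one-carbon enzyme genes, 1 point per array, with colour for the condition. For ASNS, PHGDH, PSAT1, PSPH, SHMT2 and MTHFD2 the VPA and GEM points lie below the combination and untreated points, and PHGDH has its lowest point with GEM, at 10.41.

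By the 2-fold rule, 2 of 31 members at level were lower with VPA than untreated (ASNS and PSAT1), where 2.09% of genes at level were, and 0 were higher, where 1.90% were. With GEM the count was 3 (ASNS, PHGDH and PSAT1), where 3.01% of genes at level were and 4.49% differed in either direction. At 1.5-fold, 12 of 31 members were lower with VPA (10.4% of genes at level) and 11 of 31 with GEM (11.1% of genes at level), and 0 were higher (6.64% of genes at level with VPA and 5.95% with GEM). The 12 with VPA were 4 factors and regulators, 4 enzymes and 4 synthetases. With the combination 0 members reached 2-fold against untreated (0.0261% of genes at level were lower and 0.122% higher, 0.148% in either direction). At 1.5-fold DDIT4 and ATF5 were lower with the combination, 2 of 31, against 0.366% of genes at level.

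The combination differed by group. The 10 factors and regulators had a median log2 ratio over untreated of -0.30, with 9 of 10 below 0, among them CHAC1 at -0.56 and DDIT3 at -0.48. The 14 synthetases had a median of -0.03, equal to that of all genes, and a range of -0.11 (MARS1) to 0.16 (EPRS1). The 7 enzymes lay between, with a median of -0.18 and PSAT1 lowest at -0.44. The synthetases thus stayed within the robust SD of this pair of arrays, apart from EPRS1, while several factors lay outside it.

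Among the 14 cytosolic synthetases, which load each tRNA with its amino acid, 12 had both single-drug levels below the other arrays (39.1% of genes at level). This count is for the deposited values, and EPRS1 left the order after a further quantile normalization. The tyrosyl enzyme YARS1 was at 11.85 with the combination, 11.04 with VPA, 11.22 with GEM and 11.89 untreated. The threonyl enzyme TARS1 was at 11.57 with the combination, 10.91 with VPA, 10.98 with GEM and 11.65 untreated. The alanyl enzyme AARS1 was at 11.84 with the combination, 11.29 with VPA, 11.19 with GEM and 11.91 untreated. These 3 and the methionyl enzyme MARS1 (log2 ratios -0.66 with VPA and -0.69 with GEM over untreated) were the 4 synthetases at least 1.5-fold lower with either drug. At that limit 10.4% of genes at level were lower with VPA and 11.1% with GEM. Of the 14, 0 reached 2-fold with either drug, where 4.00% (VPA) and 4.49% (GEM) of genes at level did in either direction.

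The remaining synthetases ranged down to no difference. LARS1 (leucyl) was at -0.51 with VPA and -0.57 with GEM over untreated, and CARS1 (cysteinyl) at -0.44 and -0.53 in the same order. IARS1 (isoleucyl) was at -0.36 with VPA and -0.29 with GEM, GARS1 (glycyl) at -0.35 and -0.38, and NARS1 (asparaginyl) at -0.29 and -0.22. VARS1 (valyl), EPRS1 (glutamyl-prolyl) and WARS1 (tryptophanyl) lay between -0.21 and -0.06 with either drug. HARS1 had ratios of 0.14 (VPA) and 0.16 (GEM), and SARS1 of 0.15 and 0.19 in the same order. In the deposited values HARS1 and SARS1 were thus the only member synthetases above untreated on both single-drug arrays. Outside the members QARS1 was also above, by 0.15 (VPA) and 0.21 (GEM). After a further quantile normalization EPRS1 lay above untreated as well, by 0.01 (VPA) and 0.03 (GEM).

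Among the 11 member synthetases that had a window, those with a match had the lower ratios, a comparison that could not be made outside the members. The 7 with the CARE letters (AARS1, CARS1, GARS1, IARS1, MARS1, NARS1 and TARS1) had ratios of -0.74 to -0.29 with VPA and -0.72 to -0.22 with GEM over untreated. The 4 without them (EPRS1, HARS1, SARS1 and WARS1) had ratios of -0.12 to 0.15 with VPA and -0.15 to 0.19 with GEM. Counted over the whole window, the 2 sets did not overlap in either comparison. The nearest genes were NARS1 (-0.29) and EPRS1 (-0.12) with VPA, and NARS1 (-0.22) and WARS1 (-0.15) with GEM. With either drug they lay closer than the robust SD of that array pair (0.26 for each). Only 3 of the 11 (AARS1, GARS1 and IARS1) had a match wholly before the start. On that count TARS1 and MARS1 (-0.74 and -0.66 with VPA) join the set without a match, and the sets overlap. Outside the members, only 1 of 19 windows held a match, that of YARS2 (-0.48 with VPA and -0.30 with GEM). KARS1, FARS2, CARS2 and NARS2 had windows without the letters and ratios of -0.89 to -0.44 with either drug, as low as the member synthetases with a match. HARS2, MARS2, PARS2, RARS2, TARS2 and QARS1, also without the letters, lay between -0.17 and 0.21. LARS1, VARS1 and YARS1 had no entry in the promoter table. The comparison and the motif search were chosen after the ratios had been seen, and no test was made. Over all genes at level, members included, the 246 with a match had a median ratio of -0.01 with VPA and -0.08 with GEM, and the 9231 without one -0.06 and -0.05. PSAT1 and PHGDH, among the members with the largest differences, had windows without these letters.

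**Figure D4:**
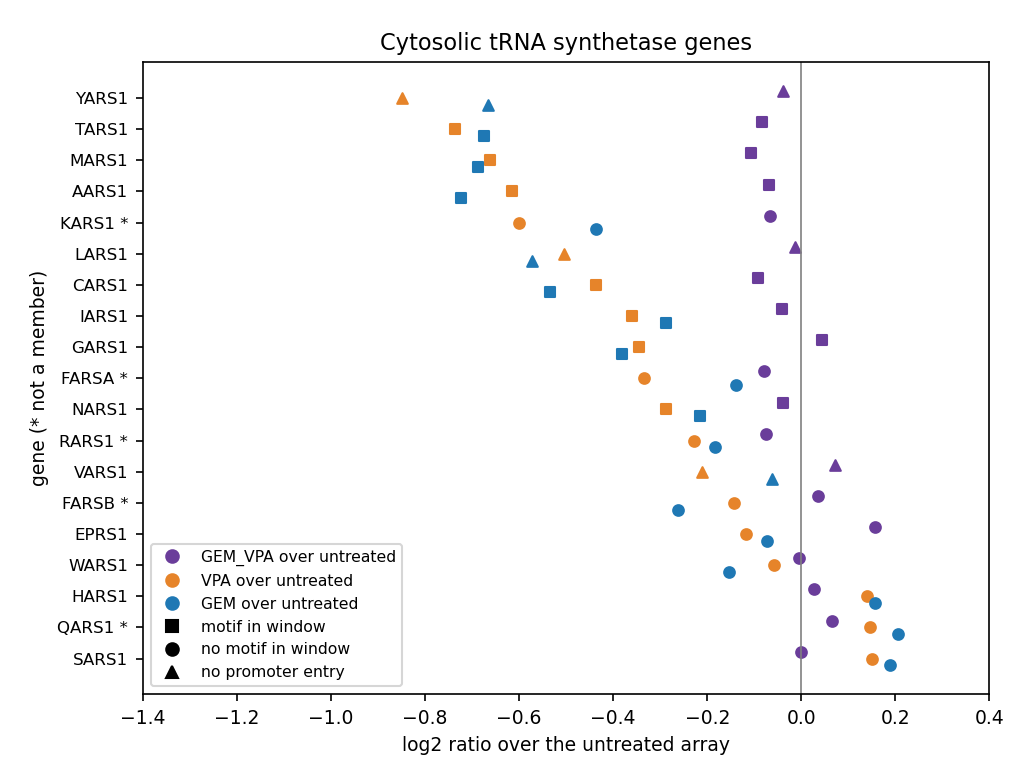
Log2 ratios over the untreated array for 19 cytosolic tRNA synthetase genes, sorted by the VPA ratio. Colour gives the drug condition and shape gives the promoter match. The combination points stay between -0.11 and 0.16, and the squares (match in the window) lie to the left of the circles of EPRS1, WARS1, HARS1 and SARS1 for both single drugs. The circle of KARS1, at -0.60 with VPA and -0.44 with GEM, and that of FARSA with VPA, at -0.33, lie among the squares.

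Synthetase genes outside the chosen members were also lower in part. Of the other cytosolic enzymes, the lysyl enzyme KARS1 was at -0.60 with VPA and -0.44 with GEM over untreated, although its window held no match. FARSA and FARSB, the subunits of the phenylalanyl enzyme, RARS1 (arginyl) and QARS1 (glutaminyl) lay between -0.33 and 0.21 with either drug, with QARS1 above 0. The 16 mitochondrial synthetases, encoded by separate genes, had medians of -0.47 with VPA, -0.34 with GEM and -0.08 with the combination over untreated. Both single-drug levels lay below the other arrays in 12 of the 16 (39.1% of genes at level) and above them in 0 (31.0%). Of these 16, 5 were at least 1.5-fold lower with VPA (10.4% of genes at level) and 3 with GEM (11.1%), FARS2 the most at -0.88 and -0.89. CARS2 had ratios of -0.60 (VPA) and -0.69 (GEM), and NARS2 of -0.70 and -0.58 in the same order. The medians of the 14 cytosolic members were -0.35 with VPA and -0.34 with GEM, and the mitochondrial set held 1 CARE match in 14 windows.

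Setting the combination against each drug alone shows what the array with both drugs had in excess of 1 drug. In the combination over GEM, PHGDH (1.28) and ASNS (1.16) were at least 2-fold higher, 2 of 31 members, against 3.60% of genes at level, and 5.38% of genes differed in either direction. At 1.5-fold over GEM 8 of 31 members were higher, against 11.9% of genes at level, and DDIT4 and ATF4 were lower, 2 of 31, against 6.56%. In the combination over VPA, ASNS (1.07) was the only one higher, against 1.48% of genes at level, and 0 members were lower, against 1.68% (3.16% in either direction). At 1.5-fold over VPA 7 of 31 members were higher, against 9.17% of genes at level, and DDIT4 was lower, 1 of 31, against 5.91%. The median ratio over the 33 members was 0.23 over GEM and 0.27 over VPA, with 26 of 33 above 0 in each, while all genes had medians of -0.02 and -0.01. At level only, the medians were 0.25 and 0.28 for members and 0.03 and 0.03 for all genes, in the same order.

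The departure from additivity, computed as the combination plus untreated minus both single drugs, measures how far the drugs together differ from the sum of the drugs alone. It was at least 1 for 10 of 31 members, against 13.0% of genes at level. They were ASNS (2.41), PHGDH (1.92), PSAT1 (1.88), CEBPG (1.60), MTHFD2 (1.52), YARS1 (1.48), TARS1 (1.33), AARS1 (1.27), MARS1 (1.24) and LARS1 (1.06, or 0.89 after a further quantile normalization). These 4 enzymes, 5 synthetases and CEBPG were lower with each drug alone than with both. DDIT4 had the most negative value, -0.99, and 0 members reached -1 (7.38% of genes at level did, and 20.4% reached the limit in either direction). After a further quantile normalization DDIT4 was at -1.09. The median over members was 0.61 and over all genes -0.01. At level only, it was 0.71 for members and 0.07 for all genes.

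**Figure D5:**
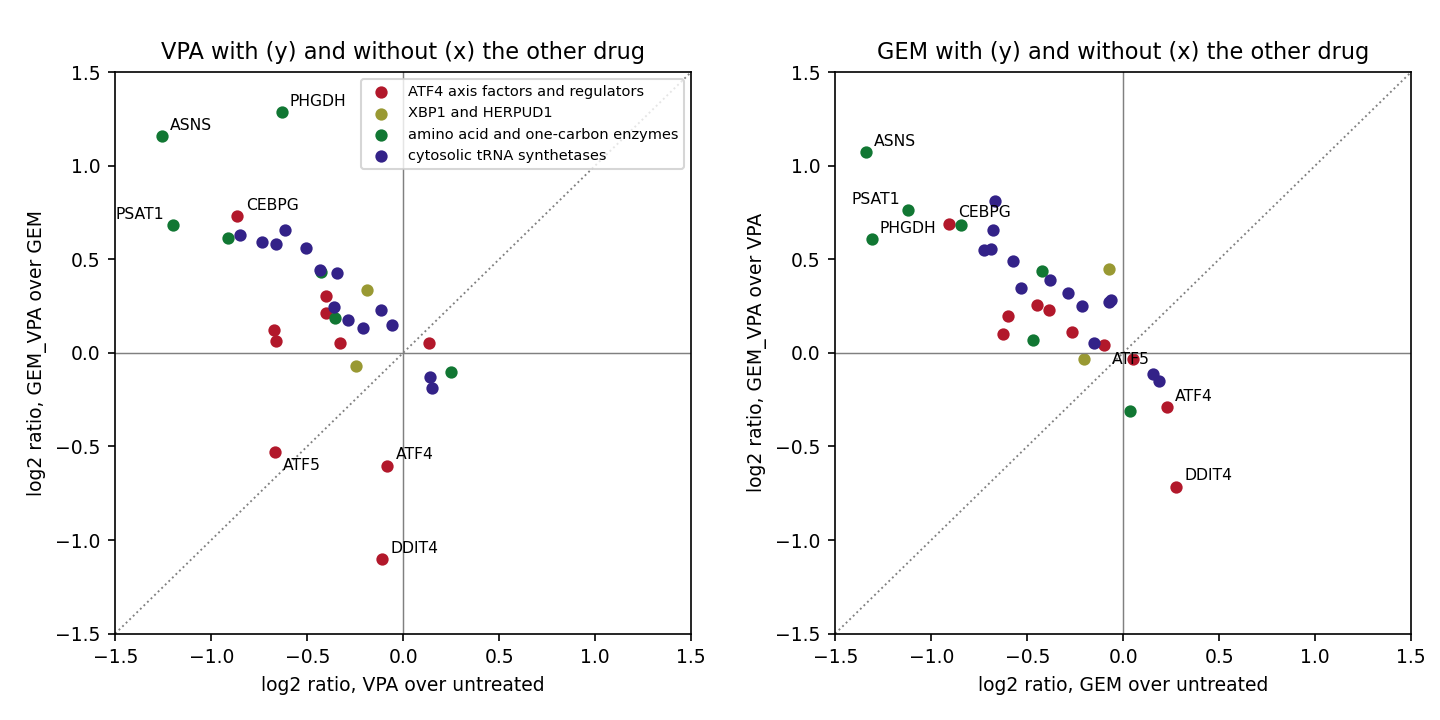
Log2 ratio for adding a drug in the presence of the other drug (y axis) and in its absence (x axis), for the 33 members, with VPA on the left and GEM on the right. Within a panel the axes share no array, and points on the dotted line would have the same ratio with and without the other drug. Most members lie in the upper left part, ASNS farthest out, while ATF5 lies near the dotted line for VPA.

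The effect of each drug, averaged over the presence and absence of the other drug, was tested with limma. The model was additive, left 1 residual degree of freedom, and was adjusted by Benjamini-Hochberg over 11797 genes. Of 31 members tested, 0 passed for VPA and 0 for GEM, and of all genes 0.00% passed for either. At an unadjusted p under 0.05, 0 members passed for either drug. The residual of this fit holds the departure from additivity, which was large for these genes, as well as array noise. ATF5 had the smallest member p for VPA, with levels lower by 0.60 on average with VPA than without (SE 0.27, limma unadjusted p 0.0845, adjusted p 1.00).

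Other ATF4 target genes did not share one order. Of 18 at level, 8 had both single-drug levels below the other arrays and 4 (ATF3, SESN2, CTH and KLHL24, the last 3 named after their values were seen) had both above, against 39.1% and 31.0% of genes at level. At least 2-fold lower than untreated was 1 of 18 with VPA and 1 of 18 with GEM (2.09% and 3.01% of genes at level). Both counts are SLC7A11, the cystine transporter, at 11.01 with the combination, 8.64 with VPA, 8.66 with GEM and 10.93 untreated. SLC7A1, a cationic amino acid transporter, was at -0.78 with VPA and -0.91 with GEM over untreated. ATF3, a stress factor that p53 and other pathways also raise, had the opposite order, at 7.38 with the combination, 8.18 with VPA, 8.48 with GEM and 7.77 untreated. The median over the 20 measured genes of this list was -0.32 with VPA and -0.23 with both GEM and the combination over untreated.

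The gene of eIF2 alpha and those of its kinases and phosphatase subunits had median ratios over untreated of -0.09 with VPA and -0.07 with GEM. At 1.5-fold 0 of these 7 passed in any of the 5 ratios. Among genes at level, 0.366% to 11.9% passed in 1 direction, depending on the ratio, so 0 of 7 is close to these shares. EIF2AK4 (named after its values were seen), which encodes the amino acid sensor GCN2, had the largest ratio over untreated, 0.41 with GEM. Its departure from additivity, -0.68, was the only one of the 7 past 1.5-fold. Of genes at level 15.8% were past that limit below 0 and 25.3% above 0. Of 18 ER chaperone and degradation genes, 0 were at least 2-fold different over untreated. Of genes at level, 4.00% with VPA, 4.49% with GEM and 0.148% with the combination were. At 1.5-fold 0 of 18 were lower with VPA and 5 of 18 with GEM (10.4% and 11.1% of genes at level), among them DNAJB11 at -0.75, PDIA6 at -0.63 and PDIA4 at -0.60. Both single-drug levels lay below the other arrays in 13 of these 18 (39.1% of genes at level) and above them in 3 (31.0%). The departure from additivity was at least 1 for 4 of 18 (13.0% of genes at level). Of 8 measured other folate and one-carbon enzymes, MTHFD1L, which makes formate in mitochondria, was at 10.57 with the combination, 9.35 with VPA, 9.95 with GEM and 10.69 untreated. It was the only one of 6 at level past 2-fold over untreated, with VPA, at -1.34 (2.09% of genes at level were lower). The departure from additivity was at least 1 for 2 of 6, MTHFD1L (1.96) and the related MTHFD2L (1.03), against 13.0% of genes at level. Of the 6, 5 had both single-drug levels below the other arrays (39.1% of genes at level). This order was thus not particular to the members.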

How the data were processed

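The values used are log2 intensities as deposited. Per the labels' series text the software was GeneSpring GX 11.5, and RMA is named per the submitters' processing notes. RMA equalises the intensity distributions of the arrays and compresses low values, so small array-wide differences are removed. No source used here names a genome build for the array rows. The table has 28869 rows per array with array medians of 7.87 to 7.92. Rows were named from the platform annotation, which gave 1 symbol to 19310 rows, several to 1752 and none to 7807. Entrez IDs matched RefSeq for 99.84% of rows with 1 symbol. A gene took the mean of its rows.

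The members and lists were chosen with earlier results of these data known. All members are reported. From each other list up to 3 genes past the rule were named, largest first, with the synthetases outside the members. The counting rule and limma were tested on simulated data with additive effects of VPA and no departure from additivity. Such data do not show how limma performs where the departure is large, as it was for these genes. Software was R 4.3.3, limma 3.58.1, Python 3.11.15, numpy 2.4.6, pandas 2.3.3 and matplotlib 3.10.9. Alternatives covered normalization, level filter, fold limit, row choice and the limma model.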

Additional observations from a re-analysis of the deposited data

Results flagged for a closer look

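ASNS, asparagine synthetase, passed the 2-fold rule in opposite directions for each drug, depending on whether the other drug was present. Adding VPA gave a log2 ratio of 1.16 in the presence of GEM (combination over GEM) and -1.26 in its absence (VPA over untreated). Adding GEM gave 1.07 in the presence of VPA (combination over VPA) and -1.34 in its absence (GEM over untreated). With 1 array per condition the difference was not tested. Both statements rest on the same 4 arrays and on a single row for the gene.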

How the results depend on the processing

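With the fold limit at 1.5 in place of 2, the number of members counted in either direction against untreated was 2 with the combination, 12 with VPA and 11 with GEM. The combination gave 10 against GEM alone, 8 against VPA alone, and 19 for the departure from additivity. Quantile normalization again, centring each array on its median, no level filter and taking a gene's row with the highest mean were run at 2-fold. They left the 6 counts at that limit the same. The counts at 1.5-fold were not rerun under these settings. The 6 member medians moved by less than 0.1 under the alternatives run. Over 198 ratios of single members, centring changed 0 calls and quantile normalization changed 2, DDIT4 with a departure of -1.09 and LARS1 with 0.89. These are calls by the 2-fold rule, and small ratios could change sign. After quantile normalization ATF4 with VPA was at 0.01 and HERPUD1 with GEM at 0.03 over untreated. EPRS1 was at 0.01 (VPA) and 0.03 (GEM). The counts of genes by the order of their arrays were not rerun. The limma fit and its 4 alternatives each counted 0 members for both drugs. At an unadjusted p under 0.05 ATF5 passed for VPA with no level filter and with the 1-factor model. No paired analysis was possible because each group has 1 array. Signal over background is not known for these arrays, so NUPR1 and ALDH1L2 may be below detection.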
